A study of Homo sapiens with 8 samples.

Results

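The 10 genes GABRP, ISL1, TFAP2A, TFAP2C, VTCN1, CGA, CYP19A1, IGFBP3, HAND1 and TBX3 are associated with the amnion and the trophoblast, and were followed through 8 long-read RNA libraries of the H1 line and cells differentiated from it. They are 10 of 20096 named genes in the combined transcript assembly and hold 26 of its 96614 transcripts. Members were taken by gene symbol, from transcripts that carry that gene name in the assembly. The set was chosen by its counts in the mesoderm libraries, where these genes were high, so every value of mesoderm against another group is a description of these genes and was not tested. H1 is an established human embryonic stem cell line. Each of the 4 groups had 2 repeats. Undifferentiated cells (hPSC) were kept in mTeSR1 on Matrigel. Mesoderm cells received VEGF and BMP4 at 100 ng/ml and bFGF at 10 ng/ml in medium with 0.5% FBS, and Activin A at 100 ng/ml only in the opening 24 h. Endoderm cells received WNT3A and Activin A, the latter at 100 ng/ml, in RPMI with 0.5% FBS. Ectoderm cells received A83-01, PNU-74654 and Dorsomorphin, each at 2 µM, with KOSR. Differentiated cells were collected after 5 days. All groups come from 1 line, and the labels do not say whether repeats are separate cultures, so p-values measure the spread between these libraries, which may be technical. Fewer cells of a type and less RNA per cell cannot be told apart in bulk libraries.

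The amnion is the thin epithelium that encloses the embryo, and the trophoblast is the outer lineage that builds the placenta. Cells with features of both are known to arise when pluripotent cultures are given BMP. TFAP2A, TFAP2C, ISL1, HAND1 and TBX3 are transcription factors, GABRP is the pi subunit of the GABA-A receptor, VTCN1 is a surface protein of the B7 family, CGA is the alpha chain shared by the glycoprotein hormones, CYP19A1 is aromatase, and IGFBP3 binds insulin-like growth factors. HAND1, ISL1 and TBX3 also act in lateral and cardiac mesoderm, and IGFBP3 is made by many mesenchymal cells.

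The library totals ran from 503840 to 1180888 counts. A count of 0 therefore allows up to 3 counts, or 2.54 to 5.95 CPM (the library's counts rescaled to a common total), for counting error only. The hPSC repeats were less alike (Pearson r = 0.872 over genes, log2 CPM) than the repeats of the other groups (0.946 to 0.968). Among listed mesoderm markers, TBXT, the brachyury gene of the primitive streak, had 1 and 0 counts in the mesoderm libraries, FOXF1 of lateral mesoderm had 0 in both, and MIXL1 and EOMES had 0 in both. KDR, a VEGF receptor, fell against hPSC (log2 fold change -5.69 ± 0.55 SE, edgeR adjusted p = 1.93e-06). TBX6, of the early mesoderm, had 6 and 3 counts, beside 3 and 6 in hPSC. Other mesoderm-list genes were present: COL3A1 and LUM, of the extracellular matrix, had 549 and 456, and 291 and 334 counts, PDGFRA had 8 and 15, DCN 12 and 7, and BMP4 and GATA6 were called higher than in hPSC.

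Sequences that carry the transcript results are shown here. The coding part of the opening exon differs between the TFAP2A forms, and the start codon is in capitals (GENCODE 29 transcripts, GRCh38, minus strand).
TFAP2A inner start, chr6:10411570-10411596: ATGttagttcacagtttttcagccatg
TFAP2A middle start, chr6:10414941-10414991: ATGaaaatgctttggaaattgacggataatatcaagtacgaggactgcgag
TFAP2A outer start, chr6:10419418-10419450: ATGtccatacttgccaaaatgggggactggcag
TBX3 exon 2a, which some TBX3 forms add to their coding sequence, lies on the minus strand.
TBX3 exon 2a, chr12:114679913-114679972: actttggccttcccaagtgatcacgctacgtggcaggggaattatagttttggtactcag
GABRP exon 9 (plus strand) is left out of the skipping form, which then reads the opening bases of the last exon up to a stop codon in capitals.
GABRP exon 9, chr5:170809568-170809755: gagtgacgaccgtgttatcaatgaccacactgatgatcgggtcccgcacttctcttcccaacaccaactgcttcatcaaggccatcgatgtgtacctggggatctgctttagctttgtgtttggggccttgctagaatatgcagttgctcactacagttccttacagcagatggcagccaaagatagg
GABRP after the skip, chr5:170811956-170811993: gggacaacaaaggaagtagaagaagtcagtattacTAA

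RefSeq promoter windows (GRCh38.p14), cut to the 250 bases before the start, were found for 8 of the 10 genes, and not for TBX3 and TFAP2C. The motifs searched, on both strands, were the TATA box as TATAA and in the longer spelling TATAAA (which contains the former), the cyclic AMP response element TGACGTCA, the AP-2 site GCCNNNGGC and the GATA site AGATAA. The motifs were chosen after the windows had been read. Of the 35116 windows in the table, 18.9% hold TATAA, 10.7% TATAAA, 1.65% TGACGTCA, 19.8% GCCNNNGGC and 9.17% AGATAA. The windows of the hormone gene CGA and of HAND1 are shown with every match in capitals, and the GABRP window, with no match, for comparison. A match is a description of letters only.
CGA, chr6:87095107-87095356, minus strand: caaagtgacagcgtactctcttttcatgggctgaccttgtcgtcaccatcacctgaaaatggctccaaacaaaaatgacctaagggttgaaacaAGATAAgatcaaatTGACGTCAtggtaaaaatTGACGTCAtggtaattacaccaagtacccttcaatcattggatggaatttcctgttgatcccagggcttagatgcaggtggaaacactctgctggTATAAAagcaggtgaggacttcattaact
HAND1, chr5:154478228-154478477, minus strand: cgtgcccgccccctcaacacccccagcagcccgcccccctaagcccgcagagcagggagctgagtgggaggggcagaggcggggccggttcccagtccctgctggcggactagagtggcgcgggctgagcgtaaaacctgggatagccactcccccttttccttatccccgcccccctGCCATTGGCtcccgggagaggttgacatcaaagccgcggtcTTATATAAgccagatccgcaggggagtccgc
GABRP, chr5:170783475-170783724, plus strand: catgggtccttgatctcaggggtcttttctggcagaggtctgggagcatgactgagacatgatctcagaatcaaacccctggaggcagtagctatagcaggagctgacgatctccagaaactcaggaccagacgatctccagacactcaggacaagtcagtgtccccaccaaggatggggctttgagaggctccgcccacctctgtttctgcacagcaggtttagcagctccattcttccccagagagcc
The CGA window holds TGACGTCA at 2 positions, a TATAAA and an AGATAA. The 8 genes have 15 windows, 7 of them of CYP19A1. The nearest of these 7 starts lies 20099 bases from the 5′ end of the CYP19A1 forms assembled here. The TFAP2A middle start has no window. The tally below therefore includes windows of starts not seen in these libraries. Of the 15, TGACGTCA was found in 1, TATAA in 6, TATAAA in 3, GCCNNNGGC in 2 and AGATAA in 3.

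All 10 genes were detected in both mesoderm libraries. In hPSC 6 and 4 of them had a count in the 2 repeats, in ectoderm 6 and 3, and in endoderm 4 and 3. Summed over the 10 genes, the level was 7238 and 8020 CPM in mesoderm, against 19.6 to 57.8 CPM in hPSC, 60.0 to 77.9 CPM in ectoderm and 64.8 to 93.9 CPM in endoderm.

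**Figure D1:**
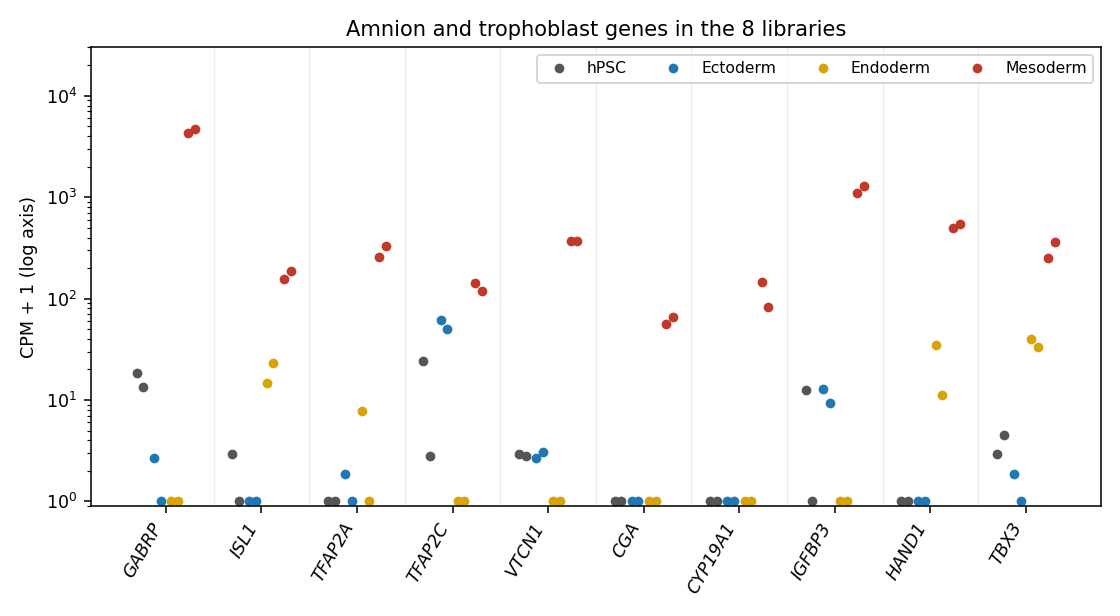
Level of each gene in each of the 8 libraries, as CPM + 1 on a log axis; each point is 1 library and colours mark the groups. For every gene, both mesoderm points lie above all 6 other points.

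GABRP (chr5:170783713-170814047, plus strand) had 2269 and 2355 mesoderm counts, 9 and 7 in hPSC, 2 and 0 in ectoderm, and 0 and 0 in endoderm. The mesoderm libraries stood far above the rest and the hPSC libraries above both other layers. The mean was 4473 ± 284 CPM (SD, n = 2) in mesoderm, 300-fold the 14.9 ± 3.45 CPM of hPSC, and at least 873-fold the endoderm level.

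VTCN1 (chr1:117143587-117210960, minus strand) had 194 and 184 mesoderm counts, 1 and 1 in hPSC, 2 and 2 in ectoderm, and 0 and 0 in endoderm. The 6 libraries outside mesoderm held 0 to 2 counts each. Pooled over repeats, mesoderm was 197-fold above hPSC (95% exact conditional interval 54.3 to 1637).

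Both AP-2 factors were high in mesoderm, and their other groups differ. TFAP2A (chr6:10396676-10419659, minus strand) had 136 and 166 mesoderm counts, 0 and 0 in hPSC, 1 and 0 in ectoderm, and 4 and 0 in endoderm, so mesoderm was at least 50.7-fold above hPSC. TFAP2C (chr20:56625045-56639283, plus strand) had 75 and 60 counts in mesoderm, 72 and 48 in ectoderm, 12 and 1 in hPSC, and 0 and 0 in endoderm. Scaled to library totals, TFAP2C was at 130 ± 15.6 CPM in mesoderm and 55.3 ± 8.02 CPM in ectoderm (SD, n = 2 each), a ratio of 2.35, with no overlap.

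The 3 developmental factors shared with mesoderm had counts in endoderm also. HAND1 (chr5:154474970-154478227, minus strand) had 263 and 274 counts in mesoderm, 20 and 6 in endoderm and 0 in all hPSC and ectoderm libraries. TBX3 (chr12:114670255-114684175, minus strand) had 132 and 180 in mesoderm, 23 and 19 in endoderm, 1 and 2 in hPSC, and 1 and 0 in ectoderm. ISL1 (chr5:51383448-51394730, plus strand) had 83 and 93 in mesoderm, 8 and 13 in endoderm, 1 and 0 in hPSC, and 0 in ectoderm. In each of these genes the order was mesoderm, then endoderm, then the 2 other groups at or near 0. Mesoderm over endoderm was 23.4-fold for HAND1, 8.45-fold for TBX3 and 9.51-fold for ISL1.

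CGA (chr6:87085498-87095106, minus strand) had 29 and 33 counts in mesoderm and 0 in the 6 other libraries, which makes mesoderm at least 10.4-fold above hPSC. CYP19A1 (chr15:51209169-51338596, minus strand) had 76 and 41 counts in mesoderm and 0 elsewhere, at least 19.4-fold above hPSC. The CYP19A1 repeats were at 143 and 81.4 CPM, a wider spread than those of CGA at 54.6 and 65.5 CPM. IGFBP3 (chr7:45912243-45921272, minus strand) had 587 and 655 mesoderm counts, 6 and 0 in hPSC, 14 and 8 in ectoderm, and 0 and 0 in endoderm. Its mesoderm mean of 1203 ± 138 CPM was 208-fold the hPSC mean, which rests on 1 library.

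Outside mesoderm the members did not move as one. In ectoderm against hPSC, edgeR's quasi-likelihood test with Benjamini-Hochberg adjustment called 1 of 10 higher and 1 lower, where 48.9% of all 10803 genes tested were called (23.7% higher, 25.2% lower). In endoderm, 3 were called higher and 2 lower, where 27.6% of all genes were called (13.4% higher, 14.2% lower). Across the 10 genes the median log2 fold change was 0.00 in both layers, against -0.02 and -0.14 over all genes. The members' 0.00 comes from genes with no count in either group compared: CGA and CYP19A1 in both layers, and HAND1 in ectoderm. Those genes could not be called, so this median does not measure how the members moved. All 10 passed the filter on low counts, 8 of them only through the mesoderm libraries; TFAP2C also passed through ectoderm and TBX3 through endoderm.

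GABRP fell in both layers. Its log2 fold change was -4.13 ± 0.79 SE in ectoderm (edgeR adjusted p = 0.000793), and endoderm was listed at 0, so hPSC was at least 2.91-fold above it (edgeR adjusted p = 0.00498). HAND1, a bHLH factor, rose in endoderm to at least 3.84-fold the hPSC level (edgeR adjusted p = 0.00108), with 34.2 and 10.2 CPM in the repeats. TBX3 rose in endoderm by 3.95 ± 0.62 SE (edgeR adjusted p = 0.000278) and ISL1 by 4.39 ± 0.89 SE (edgeR adjusted p = 0.00224), both on the log2 scale. These 5 calls held in all 14 alternative fits, with adjusted p of at most 0.045.

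TFAP2C went opposite ways in the 2 layers. It rose in ectoderm by 1.79 ± 0.54 SE on the log2 scale (edgeR adjusted p = 0.0135) and fell in endoderm, where hPSC was at least 2.43-fold higher (edgeR adjusted p = 0.0214). The hPSC level rests on 12 counts in repeat 1 and 1 count in repeat 2. Without hPSC repeat 1 the adjusted p in endoderm was 0.302, without either endoderm repeat 0.133 and 0.132, and with reference-matching transcripts only 0.0566. Without ectoderm repeat 1 the ectoderm call was also lost (adjusted p = 0.0575). Some other genes differ between the hPSC repeats in the same direction: SOX2 had 71 and 5 counts and BAMBI 17 and 2. Others went the opposite way, such as NANOG with 79 and 129 and KRT8 with 181 and 330. The part of such repeat differences in the TFAP2C result was not tested.

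IGFBP3, TFAP2A and VTCN1 were called in neither layer in the full fit. IGFBP3 in ectoderm passed the threshold in at least 1 of the 14 alternative fits. CGA and CYP19A1 had no count in hPSC, ectoderm or endoderm, so neither could be called. IGFBP3 in endoderm had an adjusted p of 0.0819, and of 0.00646 without hPSC repeat 2; in ectoderm its direction turned from 0.46 to -0.37 without that library. TFAP2A in endoderm had an adjusted p of 0.104, and of 0.048 without endoderm repeat 2, which holds none of its 4 endoderm counts. TBX3 in ectoderm had an adjusted p of 0.0862, and of 0.0223 with reference-matching transcripts only.

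**Figure D2:**
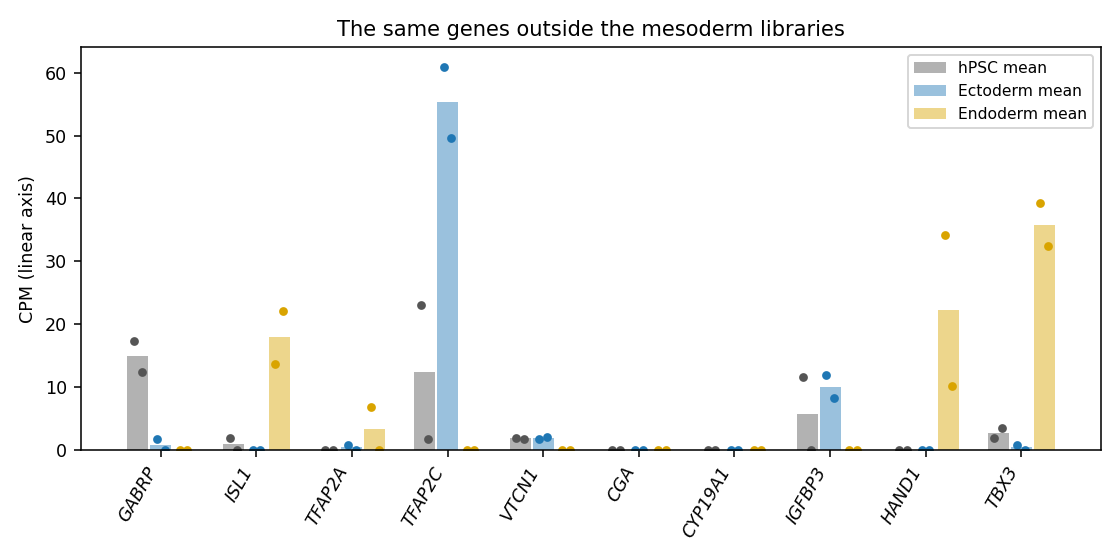
Level of the same genes in the hPSC, ectoderm and endoderm libraries, in CPM on a linear axis from 0; bars are means of 2 repeats and points are the repeats. TFAP2C stands highest in ectoderm, and ISL1, HAND1 and TBX3 are highest in endoderm.

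Long reads also give the form of each transcript. Of the 26 forms, 19 match a reference transcript and 7 do not. The unmatched forms held 1.02% and 1.21% of the genes' counts in mesoderm, where 18.7% and 19.4% of all counts were in such transcripts, and 18.2% and 18.4% in endoderm, where the shares over all counts were 14.2% and 14.1%. GABRP and IGFBP3, which hold most of the mesoderm counts, have no unmatched form. In endoderm every unmatched count of the members was in TBX3 forms that end before the end of exon 4. ISL1, CGA, IGFBP3 and HAND1 had 1 form each. Shares below are of a gene's counts with exact (Clopper-Pearson) 95% binomial intervals, which cover counting error only. The splicing and start differences were chosen for description after the structures had been seen, and none was tested.

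GABRP exon 9, of 188 bases, was skipped in 28.9% of mesoderm counts in repeat 1 and 32.0% in repeat 2, together 1410 of 4624 counts (30.5%, interval 29.2 to 31.8). In hPSC 8 of 16 counts skipped it (50%, interval 24.7 to 75.4), so the depth there does not separate the shares. The full form has 440 codons and the skipping form 289. A form with another last exon, of 349 codons, held 2.78% and 2.68%.

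TFAP2A had 3 start regions. In mesoderm the middle start held 43.4% (interval 37.7 to 49.2), the inner start 32.8% (27.5 to 38.4) and the outer start 23.8% (19.1 to 29.1) of 302 counts. The repeats were close, with 41.9% and 44.6% at the middle start. These shares count every form at a start. Forms matching a protein-coding reference transcript alone held 27.15% at the middle, 31.46% at the inner and 15.89% at the outer start. The reference coding sequences have 439, 431 and 433 codons for the middle, inner and outer starts and differ in the opening codons printed above; the 5′ ends of the assembled forms that match the main outer and inner reference transcripts lie 7208 bases apart. A 143-base piece of exon 2 was spliced out in 10.9% of counts, in forms that GENCODE 29 types as nonsense-mediated decay. An intron of 1902 bases was retained in 6.62% and 13.9%.

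**Figure D3:**
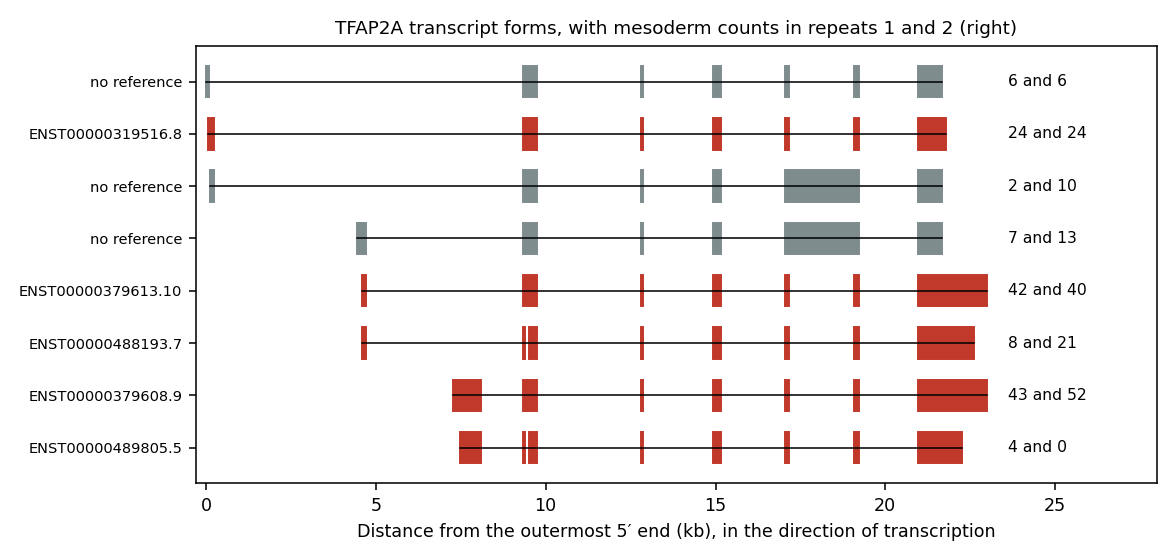
Exon structure of the 8 TFAP2A forms, drawn to scale from the outermost 5′ end in the direction of transcription; boxes are exons, red where the form matches a reference transcript and grey where none does, with the mesoderm counts of repeats 1 and 2 at the right. The opening exon falls at 3 places. Later parts differ also: some forms retain an intron, some lose part of exon 2, and the 3′ ends vary.

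TBX3 exon 2a, of 60 bases, was included in 32 of 312 mesoderm counts (10.3%, interval 7.12 to 14.2), with 10.6% and 10.0% in the repeats. In endoderm it was in 15 of 42 counts (35.7%, interval 21.6 to 52.0), with 11 of 23 and 4 of 19. The intervals do not overlap, while the endoderm repeats differ from each other. Forms ending 12 bases before the end of exon 4 held 6.73% of mesoderm counts and 40.5% (17 of 42) in endoderm, and 10 of the 15 endoderm counts with exon 2a came from such a form.

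All 117 CYP19A1 counts were in 2 assembled forms with the same 5′ end, 51338596 on chromosome 15. Start positions of single reads were not examined. That end lies 20099 bases from the nearest start in the RefSeq promoter table. The main form, with 90.6% of the counts, matches a reference transcript and has the same introns in GENCODE 29, so it is an annotated form. It has a 102-base opening exon and an opening intron of 95544 bases. A form with an extra 191-base exon held 10 of 76 counts in repeat 1 and 1 of 41 in repeat 2. CYP19A1 is known for a set of alternative tissue-specific opening exons. VTCN1 started mainly at its outer start (96.0%, interval 93.5 to 97.8), and a 348-base exon was skipped in 2.91%. A TFAP2C start 4239 bases upstream held 12 of 135 counts in mesoderm (8.89%) and 10 of 120 in ectoderm (8.33%), shares that differ by less than their intervals.

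**Figure D4:**
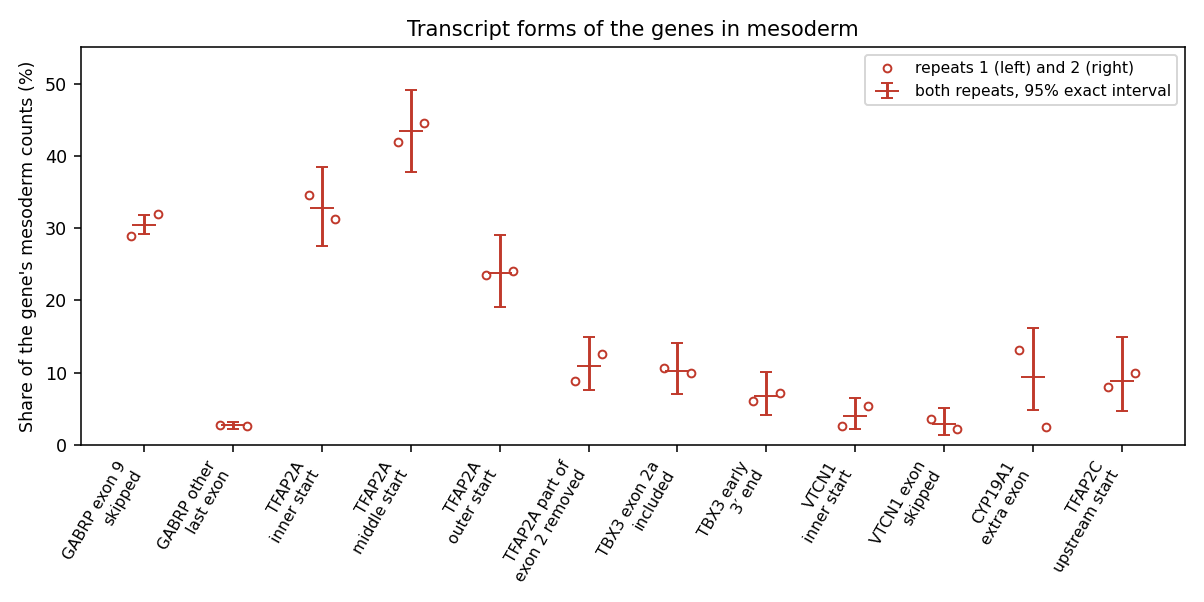
Share of each gene's mesoderm counts in the named form or start; open points are repeats 1 (left) and 2 (right), and bars show both repeats together with the 95% exact interval. The GABRP skip at 30.5% has the narrowest interval among the larger shares, and the CYP19A1 extra exon has the widest gap between repeats.

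Of the 26 forms, 14 were tested singly. In ectoderm, 1 was called higher and 2 lower (45.9% of 12440 transcripts were called, 23.8% higher and 22.1% lower), and in endoderm 3 higher and 2 lower (26.7%, 13.1% and 13.6%). The GABRP skipping form fell in both layers (edgeR adjusted p = 0.00134 and 0.0155), and the full form was at an adjusted p of 0.0612 and 0.0543. Among neighbours within 5 kb, ISL1-DT, whose reference form starts 182 bases from the ISL1 start on the other strand, had 4 and 5 counts in mesoderm in that form and 2 and 4 in another, with 1 count elsewhere, in an endoderm library. MIR4713HG, GLDN and ENSG00000259306 near CYP19A1, and TFAP2A-AS1 and TFAP2A-AS2, had at most 9 counts per transcript and library. Whether the counting used strand is not given in the sources used here.

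A wider list of 45 other amnion and trophoblast genes was read off the same fit. The list was made with earlier results of these data known, so its calls are a description and no independent check. Of the 45 genes, 10 were not listed in the count table (GCM1, CGB3, CGB5, CGB8, PSG1, PSG4, XAGE2, SIGLEC6, INSL4 and ENDOU), 14 were listed but too low to test, and 21 were tested. In mesoderm against hPSC 19 rose and 0 fell at an edgeR adjusted p under 0.05. SDC1 (-0.84 ± 0.52 SE on the log2 scale, edgeR adjusted p = 0.22) and CYP11A1 (0.24 ± 0.54 SE, edgeR adjusted p = 0.76) were not called, and without hPSC repeat 2 SDC1 was called lower (edgeR adjusted p = 0.00141). Over all genes tested, 16.8% were called higher and 18.6% lower (35.3% in all). Of the 21 tested, 14 passed the filter only through mesoderm and had to be high there, so the 7 that passed through another group also (MSX2, GATA3, TNC, BMP4, TEAD3, SDC1 and PGF) are given apart, with 6 of the 7 rising. The median log2 fold change of those 7 was 4.97 fitted, or 5.25 from mean CPM with genes at 0 in hPSC held at their bound, beside 0.00 for all genes. The summed level of the 35 listed genes, the 14 untested included, was 4496 and 3962 CPM in mesoderm and 167 to 758 CPM in the other libraries.

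Among the amnion genes, the transcription factor GATA3 had 179 and 158 counts in mesoderm, 34 and 18 in endoderm, 1 and 1 in ectoderm and no hPSC count, so that its mesoderm level was at least 56.3-fold the hPSC level. Of the 12 tested amnion genes, 5 were called higher and 1 lower in endoderm (13.4% and 14.2% of all genes). In ectoderm 2 were called higher and 3 lower (23.7% and 25.2% of all genes). MSX2, a homeobox target of BMP, had 186 and 153 counts in mesoderm against 2 and 0 in hPSC. It was also called higher in endoderm, with 11 and 13 counts (3.70 ± 0.81 SE, edgeR adjusted p = 0.00322). TNC was called higher in ectoderm, endoderm and mesoderm (3.43, 4.43 and 5.15 on the log2 scale). BAMBI, a decoy receptor of the same pathway, had 407 and 360 against 17 and 2. The ligand BMP4 itself had 165 and 125 against 3 and 5 (4.97 ± 0.48 SE, edgeR adjusted p = 1.98e-06), and was also higher in endoderm and ectoderm. WNT6, a WNT ligand, had 70 and 69 mesoderm counts and 0 elsewhere, and HEY1, a NOTCH target, 113 and 120 against 1 and 0.

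Among trophoblast genes, TEAD3 (129 and 117 mesoderm counts against 37 and 28 in hPSC) and PGF (44 and 35 against 6 and 4) rose. KRT7 (54 and 46 against 14 and 2), NR2F2 (43 and 41 against 0 and 0) and GATA2 (53 and 43 against 0 and 0) passed the filter only through mesoderm. TP63, PPARG and VGLL1 had 20 and 13, 16 and 14, and 14 and 9 mesoderm counts, with no count in hPSC. Of the untested trophoblast genes, singled out after their values were seen, ELF5, HSD3B1 and CSH1 had 0 and 2, 4 and 1, and 0 and 0 mesoderm counts. ERVFRD-1, an envelope gene of trophoblast fusion, had 7 and 5, and KRT23, a keratin, 5 and 7, both with no count in the other 6 libraries. Without the filter on low counts, 24 listed genes were called higher and 0 lower. No share over all genes is given for that fit, so this count has no background beside it. CDX2 had 13 and 7 counts in mesoderm and was not tested.

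**Figure D5:**
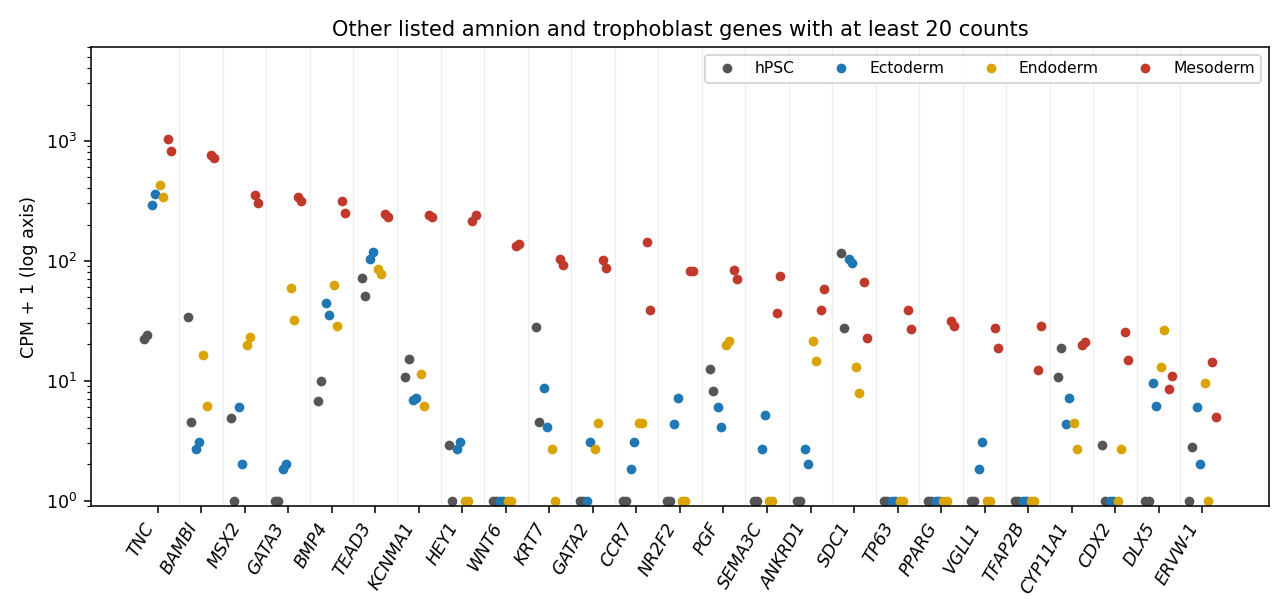
Level of 25 further listed amnion and trophoblast genes with at least 20 counts over the 8 libraries, as CPM + 1 on a log axis, ordered by mesoderm level for display; each point is 1 library. Most genes are highest in mesoderm, and the mesoderm points of SDC1, DLX5 and ERVW-1 overlap with those of other groups.

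Markers of other cell types were read the same way in mesoderm against hPSC, where 16.8% of all genes tested were called higher and 18.6% lower. All 8 pluripotency genes fell, with POU5F1 at 1 and 5 counts in mesoderm where hPSC had 372 and 352. LIN28A, ZFP42 and DPPA4 kept the most counts in mesoderm, with log2 fold changes of -1.94, -1.84 and -4.12. All 7 tested surface and epithelial genes rose, including KRT8 (2.71 ± 0.40 SE, edgeR adjusted p = 0.000101), KRT18 (2.61 ± 0.35 SE, edgeR adjusted p = 4.12e-05) and CDH1 (1.22 ± 0.29 SE, edgeR adjusted p = 0.00423). KRT8 and KRT18 also rose in endoderm (3.30 ± 0.41 and 2.51 ± 0.34 SE), while CDH1 fell there (-1.82 ± 0.30 SE). GRHL3 was higher in ectoderm (56.5 CPM) than in mesoderm (11.6 CPM). TP63 passed the filter only through mesoderm and had to be high there. Of 7 tested lateral and extraembryonic mesoderm genes, GATA6, BMP4, COL3A1 and LUM were called higher and KDR lower. COL3A1 and LUM passed the filter only through mesoderm, with 0 and 1 and with no hPSC counts. Neither tested primitive streak gene was called. Of 5 tested neural genes OTX2 fell, of 5 definitive endoderm genes GATA6 rose, and of 3 cardiac and endothelial genes TNNT2 rose. TNNT2 also passed the filter only through mesoderm.

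The genes outside the lists whose level over the 8 libraries followed the members' mean most closely were TGM2, LOXL2, TRIM55 and NTRK2, with the listed WNT6, at Pearson r of 0.9957 to 0.9969 over log2 CPM, a description of libraries that fall into 2 clusters. TGM2, a transglutaminase, had 186 and 188 counts in mesoderm and at most 1 elsewhere. TRIM55 had 216 and 243, and NTRK2, a neurotrophin receptor, 146 and 125, with 0 elsewhere. Among the members, r with their mean ran from 0.6579 for TFAP2C to 0.9956 for CGA.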

How the data were processed

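The 8 H1 libraries are PacBio Sequel II long reads of polyA RNA, per the labels' protocols. The authors deposited raw read counts per assembled transcript; the submitters' processing notes name minimap2, StringTie and GRCh38 (hg38), and versions, the counter and the use of strand are not given in the sources used here. The deposited endoderm columns are recorded under expected counts because of their names, hold whole raw counts, and were not rounded. Groups follow the sample titles. Depth was 503840 to 1180888 counts per library.

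Counts were summed per named gene; transcripts without a gene name were loci of their own. Tests used edgeR 4.0.16 in R 4.3.3: TMM, filterByExpr at a minimum count of 10, one two-sided quasi-likelihood fit over 8 libraries, Benjamini-Hochberg at 0.05. The SE is the log2 fold change divided by the square root of F. Folds against a group at 0 are bounds against 3 counts in its shallower library; with 1 to 3 counts they are pooled ratios with an exact interval. Alternatives were DESeq2 1.42.0, its size factors, no filter, a repeat block, other gene definitions and each library left out. The fit was tested on simulated data. Members, lists and events were chosen with earlier results of these data known, and the splice events, printed sequences and motifs after the structures and windows had been seen. Named genes were the 10 members, listed genes with at least 20 counts, up to 3 genes of each other list with the most mesoderm counts, the 5 genes most like the members' mean, and genes within 5 kb; other named listed genes (among them the low trophoblast and streak markers, POU5F1, SOX2 and KDR) were chosen after their values were seen. Promoter windows are from RefSeq, transcripts from GENCODE 29.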

Additional observations from a re-analysis of the deposited data

Results flagged for a closer look

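TFAP2C lay above both hPSC libraries in both ectoderm libraries (mean 55.3 CPM) and in both mesoderm libraries (130.2 CPM), and below both in endoderm. TBX3 lay above hPSC in endoderm (35.85 CPM) and mesoderm (302.9 CPM) and below it in ectoderm. GABRP lay above hPSC in mesoderm (4473 CPM) and below it in ectoderm and in endoderm, and VTCN1 above it in mesoderm (365.2 CPM) and below it in endoderm. The difference between the layers was not tested in any of these genes, and several of the lower groups are at 0 to 2 counts.

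The comparisons did not use 2 antisense transcripts without a gene name. The transcript opposite GABRP had 4 and 2 counts in mesoderm (6 in all) and 0 in the other 6 libraries; it starts, on the other strand, 631 bases from the GABRP start. The transcript opposite CYP19A1 had 7 and 4 counts in ectoderm (11 in all) and at most 1 in any other library. With 2 libraries a group, no group could be tested for an outlying library.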

How the results depend on the processing

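The DESeq2 Wald test called fewer genes than edgeR: 2337 in mesoderm, 3368 in ectoderm and 1857 in endoderm against 3818, 5278 and 2979, and 4 member transcripts against 8. Leaving out each library in turn gave 2092 to 5139 genes in mesoderm, 3371 to 6000 in ectoderm, 1508 to 4151 in endoderm, 16 to 22 of the listed amnion and trophoblast genes, 1 to 3 members in ectoderm, 4 to 6 in endoderm and 5 to 8 member transcripts; the cause was not tested. A library left out leaves its group with 1 library, which is assumed to vary like the others. Leaving out each library in turn also moved log2 fold changes to 0.00 or over it in genes not called in the full fit. The sign changed for IGFBP3 in ectoderm (-0.37 to 5.62), and for SDC1 (-1.80 to 0.34) and CYP11A1 (-0.27 to 0.92) in mesoderm. TFAP2A ran from 0.00 to 2.23 in ectoderm and from 0.00 to 5.78 in endoderm. ISL1 in ectoderm ran from -3.56 to 0.00, and IGFBP3 in endoderm from -6.04 to 0.00. A value of 0.00 arises where the library left out held the only counts. Without hPSC repeat 2, SDC1 was called lower (-1.46, edgeR adjusted p = 0.00141). Repeat numbers did not pair the samples (correlations of deviations -0.0351 to 0.151); with the repeat as a block, edgeR called 3657 genes in mesoderm, 5119 in ectoderm and 2855 in endoderm, 19 listed genes, 2 and 5 members and 8 member transcripts. Low counts limit the groups outside mesoderm.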
